A study of Mus musculus with 9 samples.

Results

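Semaphorins and their receptors, the plexins and neuropilins, were measured in dorsal root ganglia (DRG, the ganglia that hold the cell bodies of sensory neurons) with and without injury of the sciatic nerve. All genes on the array were taken whose name in the scanner files begins with Sema and a digit or with Plxn, or is Nrp1 or Nrp2. This gave 30 of the 27962 gene names, with 20 semaphorins on 36 probes and 10 receptors on 22 probes. The samples were total RNA of L3/L4 DRG from adult mice, 4 uninjured and 5 injured by transection of the sciatic nerve, given as 3 days after the cut in the labels and as 24 hr in the results text of the study, whose series design and results text name L4 alone. The source label, which names the transection, reads the same for both groups, so these were taken from the titles, descriptions and treatment labels. All 9 samples are labelled cre.neg and jun.wt, which leaves both groups without Cre and with wild-type Jun, and no strain, sex, age other than adult or number of animals per sample was given in the sources used here. The labels identify no animals, so p-values measure the spread between these samples, which may be technical, and although contralateral ganglia served as controls after nerve crush in the study's methods, the source of the uninjured ganglia on the arrays is not stated there. Each array compared DRG RNA in the Cy5 channel with a commercial mouse reference RNA in the Cy3 channel, with the dyes the same way round throughout, and each value is the log2 ratio of DRG over reference after normalization within the array.

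Semaphorins are secreted or membrane-bound guidance cues that share a sema domain. Class 3 members are secreted and most bind a neuropilin that forms a complex with a plexin A, whereas the other vertebrate classes are anchored in the membrane and most bind plexins directly. Plexins signal through a GTPase-activating domain to the cytoskeleton and to integrin adhesion, and adult sensory neurons and the cells around them express many of these ligands and receptors.

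Of the 30 genes, 29 were above background in Cy5 on all 9 arrays and were tested, and none of their spots was flagged as non-uniform or saturated. After injury 4 were higher (Sema6a, Plxna4, Sema4f and Sema6c), 3 were lower (Plxna2, Sema7a and Plxnc1) and 22 did not pass the test (limma, Benjamini-Hochberg adjusted p under 0.05 over all 21097 genes tested). That is 24.1% called, against 25.4% of all genes tested. The higher calls made up 13.8% of the family against 11.4% of all genes, and the lower calls 10.3% against 14.0%, so the shares lay near those of the array as a whole. The median log2 fold change was 0.04 over the 29 genes and 0.000631 over all genes, with 15 of the 29 above and 14 below 0. In 5 of the 29 the call came with no overlap between injured and uninjured arrays (17.2%), against 21.5% of all genes. Only 1 of the 29 genes, Sema6a, was called with a change of more than 1.5-fold as reported, against 1250 of all 21097 genes tested. Sema6a alone of the 29 passed the test with slide as a fixed block, where 5.63% of all genes were called.

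**Figure D1:**
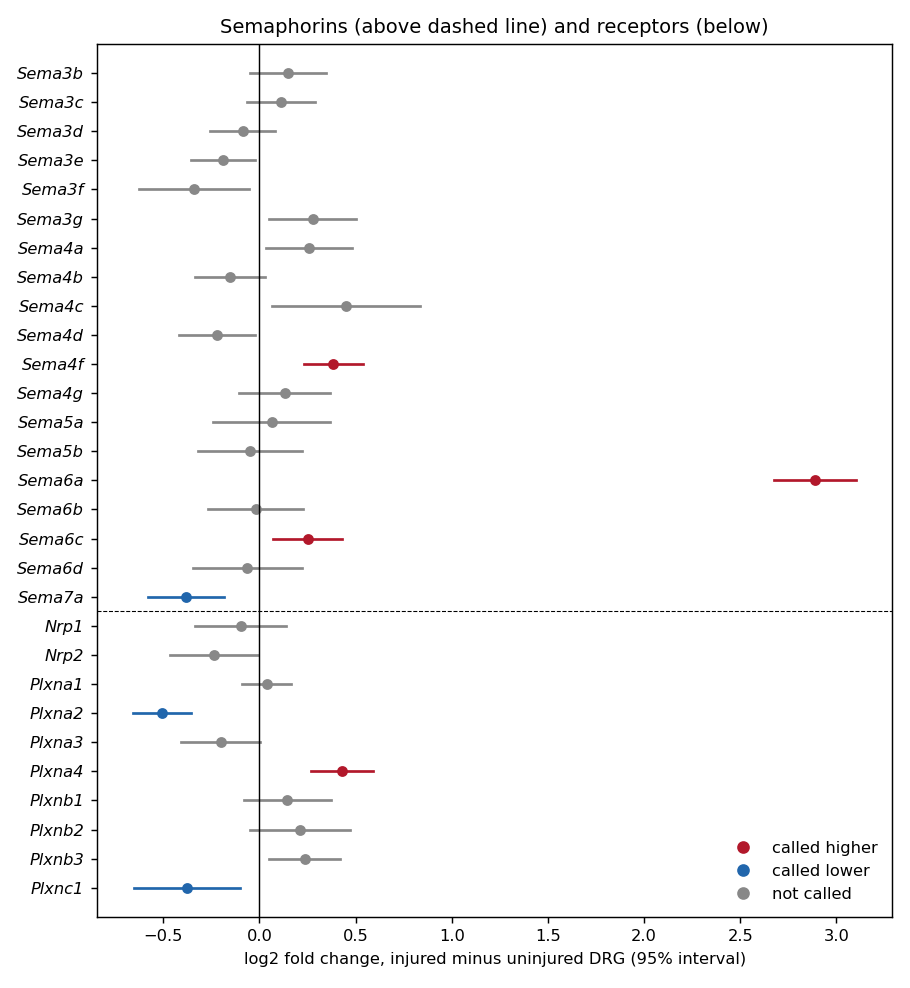
Log2 fold change (injured minus uninjured, points) with its 95% interval from limma (lines) for the 29 genes tested, semaphorins above and receptors below the dashed line, red, called higher, blue, called lower, grey, not called. Sema6a stands at 2.89, and every other gene lies between −0.51 and 0.45.

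The injury itself was visible in the genes chosen to check it. Atf3, a transcription factor induced in axotomized neurons, was 5.14 higher on the log2 scale, Sprr1a 4.99, Jun 1.77 and the neuropeptide gene Gal 1.76 (limma adjusted p 2.73e-11, 1.4e-09, 0.000334 and 2.71e-07), and all 4 had no overlap between groups. The ganglia expressed sensory neuron genes. Of the 18 on the list 16 were found by name on the array, and all 16 passed the filter. Among these 3 fell (Scn9a, Scn11a and Isl1) and none rose. That is 18.8% called, against 25.4% of all genes. The median Cy5 signal lay between 156 and 238 and 71.0% to 78.9% of spots were above background, and the number of arrays limits the precision. By the barcodes the arrays lay on 3 slides, with 3 uninjured arrays on the first, 1 uninjured and 3 injured on the second, and 2 injured on the third, so that slide and injury overlapped in large part. Arrays correlated at 0.971 to 0.991 within a group and at 0.946 to 0.974 between groups, over all genes tested.

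Markers of other cells differed between arrays, and their part in the results on semaphorins and receptors was not tested. Of 13 macrophage genes tested, 3 were higher (Aif1, Itgam and Cd14), which is 23.1% called against 25.4% of all genes. The mean of the list, set to 0 in uninjured DRG, ran from −0.42 to 0.34 on uninjured and from 0.09 to 0.94 on injured arrays, highest on injured 2 and injured 5. The mean of 8 skeletal muscle genes was 1.84 on injured 2 and 3.55 on injured 4 and between −0.15 and 0.29 on the other arrays, and none of the 8 passed the test. Of 8 endothelial genes, 1 was higher (Tek, 12.5% called) and the list ran from −0.26 to 0.12 on uninjured and from −0.03 to 0.57 on injured arrays. In satellite glia 1 of 7 was higher (14.3%) and in dividing cells 1 of 6 (16.7%). No gene of myelinating Schwann cells (7), fibroblasts and pericytes (8) or red blood cells (3) passed the test, although the red blood cell list was at 1.19 on injured 2 and 1.22 on injured 5 against 0.49 or less on the other arrays. In bulk RNA fewer cells of a type and less RNA per cell cannot be told apart.

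The promoters of called genes are shown because c-Jun and ATF3, whose genes were higher in these ganglia, bind the AP-1 letters TGANTCA and the CRE letters TGACGTCA. RefSeq promoters (GRCm38.p6, the 250 bases before the start) were at hand for 25 of the 30 genes, with 36 promoters, and none for Plxna1, Plxna4, Sema3b, Sema3f and Sema6a. Searched on both strands, AP-1 letters were in 3 of the 36 (of Sema4c, Sema4d and Sema6b, none of them called) and in 6.75% of all 32851 promoters, and CRE letters in 0 of the 36 and in 1.55% of all. Of the 5 called genes without overlap, 3 have an entry, and their sequences, 5′ to 3′ on the gene's strand, hold neither motif, which says only that these letters are not in these windows. They lie at chr1:194619579-194619828, plus strand for Plxna2 (62.8% G and C), chr6:82939770-82940019, minus strand for Sema4f (46.0%) and chr9:57939862-57940111, plus strand for Sema7a (66.4%), against a median of 52.4% over all promoters.
Plxna2: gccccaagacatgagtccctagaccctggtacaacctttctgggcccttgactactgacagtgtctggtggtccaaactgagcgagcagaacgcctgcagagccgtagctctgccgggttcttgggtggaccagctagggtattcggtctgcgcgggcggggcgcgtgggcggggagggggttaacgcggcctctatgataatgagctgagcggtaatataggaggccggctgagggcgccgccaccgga
Sema4f: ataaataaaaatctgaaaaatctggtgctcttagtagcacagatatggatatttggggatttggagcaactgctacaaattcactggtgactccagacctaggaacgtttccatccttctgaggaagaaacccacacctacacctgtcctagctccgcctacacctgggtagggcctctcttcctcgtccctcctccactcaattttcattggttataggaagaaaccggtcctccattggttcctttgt
Sema7a: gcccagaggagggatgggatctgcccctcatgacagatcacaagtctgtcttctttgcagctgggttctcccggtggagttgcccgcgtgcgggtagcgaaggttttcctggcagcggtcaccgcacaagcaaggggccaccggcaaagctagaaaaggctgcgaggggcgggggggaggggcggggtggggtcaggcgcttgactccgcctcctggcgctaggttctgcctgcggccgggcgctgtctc

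Sema6a, a transmembrane class 6 semaphorin that binds plexin A2 and plexin A4, showed the largest change of the family. Its log2 ratio was 1.23, 1.07, 1.27 and 1.17 on uninjured arrays 1 to 4, and 4.11, 4.37, 3.92, 4.08 and 3.90 on injured arrays 1 to 5. Every injured array lay far above every uninjured array, and the arrays of each group lay close together. The mean over the 4 uninjured arrays was 1.19 (SD 0.09) and that over the 5 injured arrays 4.08 (SD 0.19), so that Sema6a rose by 2.89 ± 0.10 (SE) on the log2 scale or 7.41-fold (limma adjusted p = 2.35e-08, two-sided exact permutation p = 0.00794, the smallest that 4 and 5 arrays allow). It was the gene ranked 17 from the top of the 21097 tested. The gene, on chromosome 18, has 3 probes, and the size of the change depended on the probe. The brightest probe gave 2.89 and the next 1.47 ± 0.09 (SE, adjusted p over probes 1.37e-06), whereas the last was not well above background on any array.

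Of the other class 6 genes, Sema6c was called higher, with a log2 fold change of 0.25 ± 0.08 (SE, limma adjusted p = 0.0452, exact permutation p = 0.0317). Its log2 ratio was 0.29, 0.35, 0.27 and 0.31 on uninjured arrays 1 to 4, and 0.30, 0.71, 0.54, 0.57 and 0.66 on injured arrays 1 to 5. The groups overlapped through injured 1, which lay among the uninjured arrays. The second probe of Sema6c gave −0.13 (adjusted p over probes 0.186), the opposite sign, and the call was lost in 17 of 23 alternative settings, among them leaving out any 1 array other than injured 1. Sema6b (−0.02, 95% interval −0.27 to 0.23) and Sema6d (−0.06, −0.35 to 0.22), both transmembrane, did not pass the test.

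Among the 6 class 4 semaphorins, transmembrane proteins of which several bind plexins of the B type, Sema4f alone was called. It measured 3.07, 3.11, 2.91 and 3.08 on uninjured arrays 1 to 4, and 3.34, 3.37, 3.37, 3.47 and 3.58 on injured arrays 1 to 5. All injured arrays lay above all uninjured arrays, with injured 5 the highest. The log2 fold change was 0.38 ± 0.07 (SE) or 1.30-fold (limma adjusted p = 0.00235, exact permutation p = 0.00794). In the Cy5 channel alone, scaled between arrays, the value was 0.60. The reference signal at this probe, scaled the same way, thus also differed between groups. Neither that difference nor its cause was tested. Sema4f has 1 probe, on chromosome 6 from 82937828 to 82937887 (mm7, as the files give it).

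Sema4c, a ligand of plexin B2, had a log2 fold change of 0.45 ± 0.17 (SE) with a 95% interval of 0.07 to 0.83, which did not pass the test (limma adjusted p = 0.083). Sema4c passed in 5 of the 23 alternative settings, among them without injured 5 (0.56, adjusted p = 0.025) or without uninjured 3 (0.59, 0.034). Its uninjured arrays alone ran from 0.0014 to 0.71 and its injured arrays from 0.33 to 1.05. A second, dimmer probe gave 0.33 ± 0.09 (SE) and passed in the fit over probes (adjusted p 0.026). Sema4a, which also acts on immune cells, measured 0.26 (adjusted p = 0.0873) and was highest on injured 5 and injured 2, where the macrophage genes were highest too. Sema4a passed in 3 of the 23 alternative settings, among them without injured 3 (0.31, adjusted p = 0.048). Sema4d, a ligand of plexins B1 and B2, measured −0.22 (adjusted p = 0.099), Sema4b −0.15 (0.205) and Sema4g 0.13 (0.412), and in each the groups overlapped. Sema4d passed in 2 of the 23 alternative settings, among them the Cy5 channel alone (−0.44, adjusted p = 0.0234). Sema4b passed in 1, without background correction (−0.21, adjusted p = 0.0464). The other probe of Sema4d was above background on 3 of 5 injured and 0 of 4 uninjured arrays and was not tested.

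Sema7a, the class 7 semaphorin, is held in the membrane by a lipid anchor and binds plexin C1 and beta1 integrin. It measured 2.01, 1.85, 1.95 and 2.08 on uninjured arrays 1 to 4, and 1.35, 1.62, 1.61, 1.54 and 1.80 on injured arrays 1 to 5. The groups did not overlap, although injured 5 and uninjured 2 lay next to each other. Its log2 fold change was −0.38 ± 0.09 (SE), 0.766 of the uninjured ratio (limma adjusted p = 0.00984, exact permutation p = 0.0159). In the Cy5 channel alone, scaled between arrays, the value was −0.73. The reference signal at this probe, scaled the same way, thus also differed between groups. Neither that difference nor its cause was tested. Sema7a has 1 probe, on chromosome 9 from 57990527 to 57990586 (mm7).

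The class 5 semaphorins, transmembrane proteins with thrombospondin repeats, were not called on their brightest probes, at 0.06 (95% interval −0.24 to 0.37) for Sema5a and −0.05 (−0.32 to 0.22) for Sema5b. The 3 probes of Sema5b gave different answers. Its dimmer probes measured −0.43 ± 0.11 and −0.56 ± 0.06 (SE), both called lower in the fit over probes (adjusted p 0.0198 and 6.29e-05), where 23.5% of all 31186 probes were called. With the probes of each gene averaged, Sema5b was −0.35 with an adjusted p of 0.00862, so its result rests on which probe is read.

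None of the 6 class 3 semaphorins tested was called. Sema3a, the classic repellent of sensory axons and a ligand of neuropilin 1, was not tested, since its brightest probe was well above background on 0 of 4 uninjured and 1 of 5 injured arrays and the other 2 probes on none. The scanner values of that probe gave log2 ratios from −3.21 to −2.90 on uninjured and from −3.29 to −2.75 on injured arrays, which are bounds and not levels.

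Sema3f, a ligand of neuropilin 2, measured 0.86, 0.92, 0.67 and 1.16 on uninjured arrays 1 to 4 and 0.43, 0.35, 0.51, 0.57 and 0.95 on injured arrays 1 to 5. Injured 5 lay among the uninjured arrays and the other injured arrays below them, with a log2 fold change of −0.34 ± 0.13 (SE, limma adjusted p = 0.0812). Sema3f passed the test in 4 of the 23 alternative settings, among them without injured 5 (−0.44, adjusted p = 0.0101). Its other probe gave −0.07 (adjusted p over probes 0.676). Sema3g, secreted mainly by vascular cells, measured 4.05, 3.68, 3.68 and 4.0 on uninjured and 4.05, 4.33, 3.97, 4.18 and 4.13 on injured arrays. Its injured mean was higher by 0.28 ± 0.10 (SE, adjusted p = 0.0731), and the groups overlapped. Sema3g passed the test in 3 of the 23 alternative settings, among them without uninjured 1 (0.34, adjusted p = 0.0493). Sema3e, which unlike most of its class binds plexin D1 without a neuropilin, measured −0.87, −0.89, −0.95 and −0.76 on uninjured and −1.08, −1.15, −0.84, −1.08 and −1.13 on injured arrays. Injured 3 alone of the injured arrays lay among the uninjured ones, and the log2 fold change was −0.19 ± 0.07 (SE, adjusted p = 0.0896). Sema3e passed the test in 2 of the 23 alternative settings, among them without injured 3 (−0.24, adjusted p = 0.0183). No probe carries the name of the gene for plexin D1, which was not analysed here.

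Sema3b measured 3.35, 3.07, 3.22 and 3.39 on uninjured and 3.31, 3.36, 3.29, 3.64 and 3.44 on injured arrays, with a log2 fold change of 0.15 (95% interval −0.05 to 0.35). Sema3c measured −0.73, −0.59, −0.66 and −0.44 on uninjured and −0.68, −0.39, −0.45, −0.48 and −0.47 on injured arrays, a difference of 0.11 (−0.07 to 0.29). Sema3d measured 0.40, 0.55, 0.63 and 0.58 on uninjured and 0.43, 0.62, 0.48, 0.30 and 0.41 on injured arrays, a difference of −0.09 (−0.25 to 0.08). In these 3 secreted ligands the groups overlapped.

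**Figure D2:**
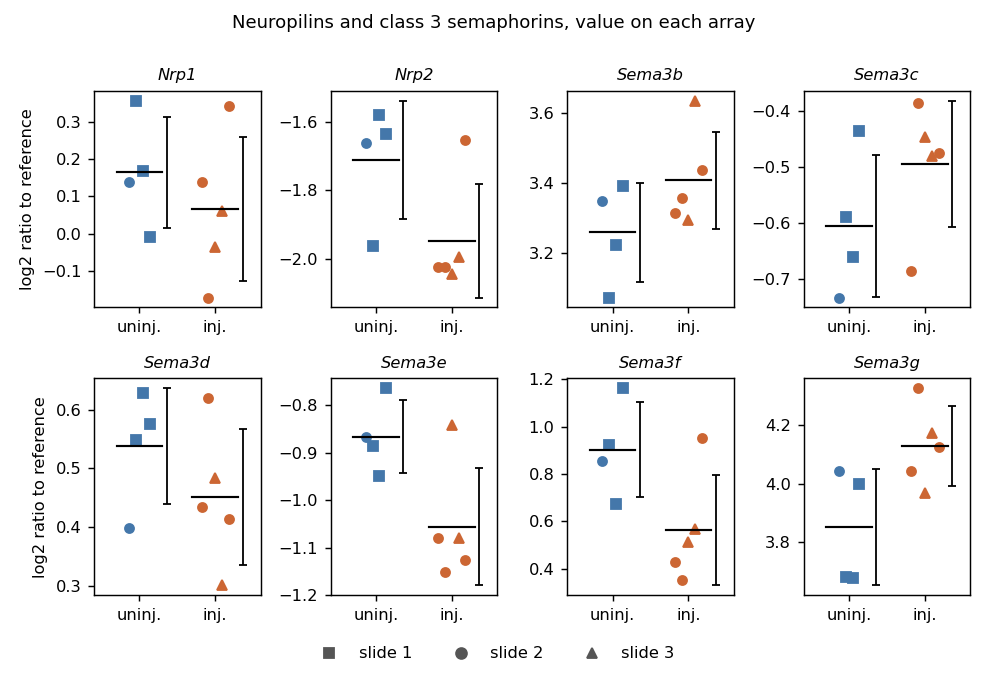
Log2 ratio to the reference on each array for the neuropilins and the 6 class 3 semaphorins tested, uninjured (blue) and injured (orange), with the mean (line), the SD (bar at the right of each group) and the slide (marker shape). The groups overlap in all 8 genes, and single arrays such as injured 5 in Nrp2 and injured 3 in Sema3e lie apart from their group.

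The neuropilins, the binding receptors of the class 3 ligands, did not pass the test either. Nrp1 measured 0.14, 0.36, 0.17 and −0.01 on uninjured arrays 1 to 4 and 0.14, −0.17, −0.04, 0.06 and 0.34 on injured arrays 1 to 5. The groups lay across each other, and the log2 fold change was −0.10 ± 0.11 (SE, 95% interval −0.33 to 0.14, limma adjusted p = 0.555), with −0.15 and −0.02 on the other probes. Nrp2 measured −1.66, −1.96, −1.58 and −1.64 on uninjured arrays and −2.02, −2.02, −2.04, −1.99 and −1.65 on injured arrays. Of the injured arrays 4 lay below all uninjured arrays and injured 5 among them. The log2 fold change was −0.24 ± 0.10 (SE, limma adjusted p = 0.123, exact permutation p = 0.0635). Nrp2 passed the test in 3 of the 23 alternative settings, among them without injured 5 (−0.31, adjusted p = 0.021) and without uninjured 2 (−0.32, adjusted p = 0.0381). The other probe of Nrp2 was not well above background on any array.

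Of the 4 A-type plexins, the signalling partners of the neuropilins and receptors of class 6 semaphorins, 1 rose and 1 fell. Plxna4 measured 1.95, 1.96, 1.93 and 1.85 on uninjured arrays 1 to 4, and 2.21, 2.38, 2.22, 2.45 and 2.49 on injured arrays 1 to 5. The groups did not overlap, and the injured arrays spread more widely than the uninjured ones. The log2 fold change was 0.43 ± 0.07 (SE) or 1.35-fold (limma adjusted p = 0.00182, exact permutation p = 0.00794). Its other probes gave 1.06 and 0.52 (adjusted p over probes 1.84e-05 and 0.00126), so all 3 were called higher and the largest was over 1.5-fold. The value was 0.67 with the probes averaged. In the Cy5 channel alone, scaled between arrays, the brightest probe gave 1.13. Its reference signal, scaled the same way, thus also differed between groups. Neither that difference nor its cause was tested. The brightest probe lies on chromosome 6 from 32075825 to 32075884 (mm7).

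Plxna2 measured 4.21, 4.20, 4.29 and 4.16 on uninjured arrays 1 to 4, and 3.82, 3.64, 3.63, 3.85 and 3.62 on injured arrays 1 to 5. All injured arrays lay below all uninjured arrays. The log2 fold change was −0.51 ± 0.07 (SE), 0.704 of the uninjured ratio (limma adjusted p = 0.000426, exact permutation p = 0.00794), the lowest of the 29 genes. Its other probes gave −0.50 (adjusted p over probes 0.000575) and −0.26 (0.0649). The brightest lies on chromosome 1 from 194371060 to 194371119 (mm7). Plxna1 was not called, at 0.04 (95% interval −0.09 to 0.17), nor was Plxna3, at −0.20 (−0.41 to 0.0032). Of the named receptors of Sema6a, Plxna4 was thus higher and Plxna2 lower in injured DRG.

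Plxnc1, the plexin that binds Sema7a, was called lower by a narrow margin, with −0.38 ± 0.12 (SE, limma adjusted p = 0.0493, exact permutation p = 0.0397). It measured 4.92, 4.63, 4.70 and 4.78 on uninjured arrays 1 to 4, and 4.55, 4.43, 4.66, 4.25 and 4.01 on injured arrays 1 to 5. Injured 3 lay among the uninjured arrays and injured 5 lowest, and the call was lost in 15 of 23 alternative settings, among them leaving out any 1 array other than injured 1 or injured 3. Its second probe gave −0.30 (adjusted p over probes 0.169). The B-type plexins, receptors of class 4 semaphorins, were not called, with Plxnb3 at 0.24 ± 0.08 (SE, adjusted p = 0.0645), Plxnb2 at 0.21 ± 0.12 (0.223) and Plxnb1 at 0.14 ± 0.10 (0.342). Plxnb3 passed the test in 8 of the 23 alternative settings, among them without injured 3 (0.28, adjusted p = 0.0345), without injured 5 (0.26, 0.0493) or without uninjured 1 (0.29, 0.0463). Plxnb2 was highest on injured 5, at −1.96 against −2.33 or lower on the other arrays.

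**Figure D3:**
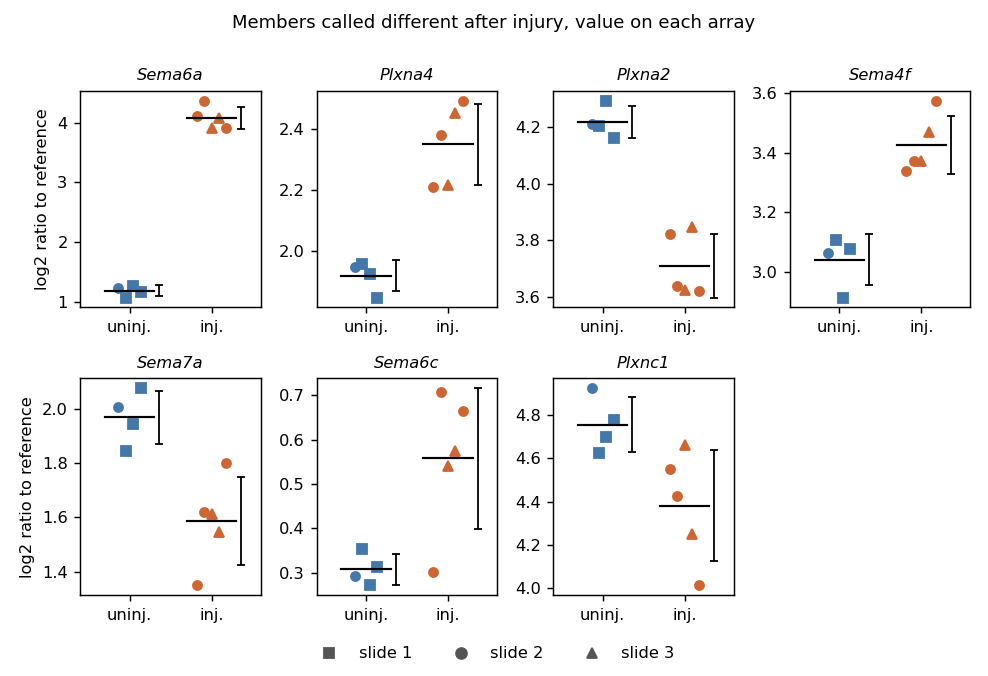
Log2 ratio to the reference on each array for the 7 genes called, uninjured (blue) and injured (orange), with the mean (line), the SD (bar at the right of each group) and the slide (marker shape), each gene on its own axis. Sema6a, Plxna4, Plxna2, Sema4f and Sema7a do not overlap between groups, whereas Sema6c and Plxnc1 each have 1 injured array among the uninjured ones.

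Ligands and receptors had similar medians. Of 19 ligands tested, 3 were higher, 1 lower and 15 not called (21.1% called, against 25.4% of all genes), with a median log2 fold change of 0.06. Of 10 receptors tested, 1 was higher, 2 lower and 7 not called (30% called), with a median of −0.03. The difference between ligands and receptors was not tested.

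Where a gene had several probes, they mostly had the same sign. Of the 58 probes 51 passed the filter and 13 were called (25.5%, against 23.5% of all probes), and 17 genes had more than 1 such probe. In 15 of the 17 all probes had the same sign, and Sema6c and Sema6d had probes of opposite sign. The probes of a gene lay 0.107 apart on the log2 scale at the median, from 0.0249 in Sema5a to 1.42 in Sema6a. Probes of a gene share the samples and are not replicates.

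**Figure D4:**
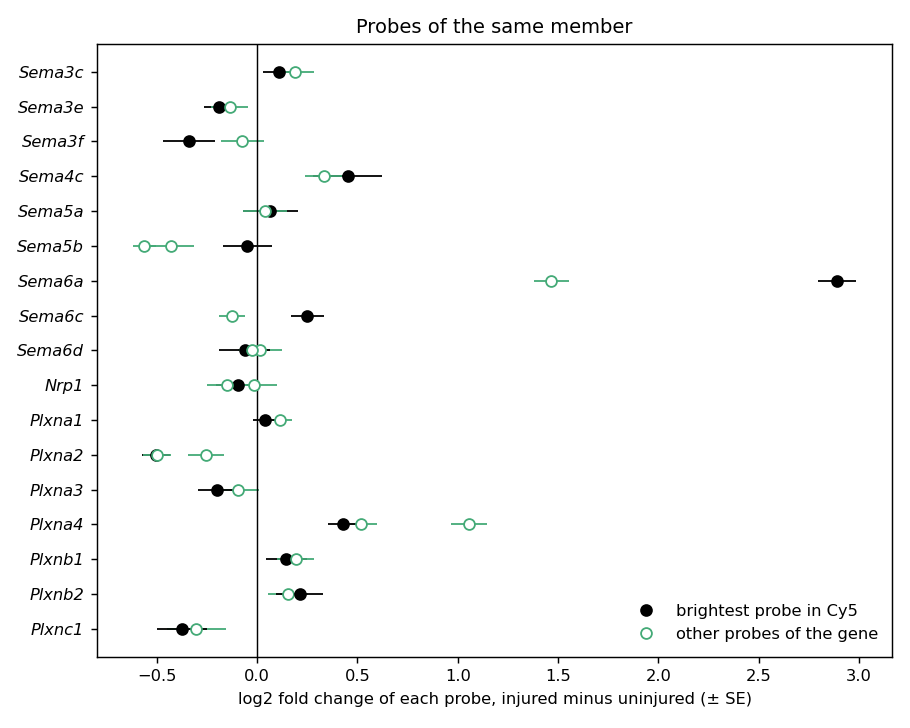
Log2 fold change (± SE) of every probe that passed the filter, for the 17 genes with more than 1, with the brightest probe filled and the others open. The probes of Sema6a, Plxna4 and Sema5b lie far apart, those of Sema6c lie on both sides of 0, and most others lie close together.

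Slide and injury were then taken apart as far as the layout allowed. With slide as a fixed block, which rests on the slide that held both groups, 5.63% of all genes were called, and of the 29 genes Sema6a alone (log2 fold change 2.89, limma adjusted p = 0.000125). The other 6 called genes kept their direction there. On that slide, with 3 injured arrays and 1 uninjured, Plxna2 was at −0.52 (adjusted p = 0.0625 with the block), Plxna4 at 0.41 (0.142), Sema4f at 0.36 (0.165), Sema7a at −0.42 (0.207), Plxnc1 at −0.59 (0.168) and Sema6c at 0.27 (0.386). Only Plxnc1 moved by over 1.5 times. Of all 29 genes, 24 had the same sign on that slide as over all arrays, which include the arrays of that slide. With injured 2 and injured 4 left out, the arrays with raised muscle genes, 14.4% of all genes were called. Of the 29 genes 3 were then higher (Sema6a, Plxna4 and Sema4f) and 1 lower (Plxna2), and Sema7a measured −0.38 (limma adjusted p = 0.0571).

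**Figure D5:**
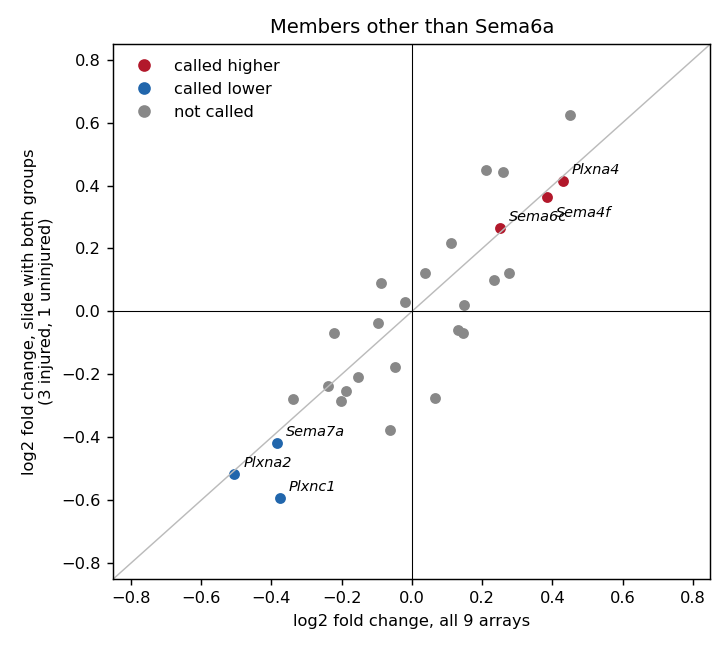
Log2 fold change on the slide that held both groups (vertical, 3 injured and 1 uninjured array) against that over all 9 arrays (horizontal), for 28 genes without Sema6a, which lies at 2.89 on both axes, the grey diagonal marks equal values and colours mark the calls over all arrays. The 6 called genes shown lie on the same side of 0 on both axes, and 5 of them lie near the diagonal.

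Genes that act with these ligands and receptors were counted from lists. Of 15 co-receptors and other receptors tested, 4 were higher and 1 lower, which is 33.3% called against 25.4% of all genes, and nothing particular to the list is read from it. Chl1, an adhesion molecule that associates with neuropilin 1, was higher by 0.86 ± 0.12 (SE, limma adjusted p = 0.0004), Itgb1, the beta1 integrin that binds Sema7a, by 0.55 ± 0.10 (0.0031), Cd72, a receptor of Sema4d on immune cells, by 0.42 ± 0.11 (0.0158) and the receptor tyrosine kinase gene Erbb2 by 0.25 ± 0.06 (0.01). Ptk7, a pseudokinase receptor, was at −0.27 ± 0.06 (0.0117). The list's mean was highest on injured 5 and injured 2, at 0.49 and 0.44 relative to uninjured DRG, the arrays on which the macrophage genes were highest. The list itself holds genes of immune cells such as Cd72, and it shares Kdr and Flt1 with the endothelial list. What lies behind the shared pattern was not tested. Of the 5 other neuropilin ligands, all of the VEGF family, none was higher and Vegfb was lower (−0.27 ± 0.06, adjusted p = 0.00986). This list thus had 20% called, against 25.4% of all genes.

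Of 41 intracellular genes of the pathway tested, 7 were higher and 3 lower, with a median of 0.11, which is 24.4% called against 25.4% of all genes. Of the higher genes reported here, Micall1 was higher by 0.77 ± 0.17 (SE, limma adjusted p = 0.00665), Rap1b, a GTPase on which plexins act, by 0.48 ± 0.08 (0.00108) and the integrin-binding talin gene Tln1 by 0.47 ± 0.10 (0.00668). Crmp1, Limk2 and Farp1 were also higher. In Micall1 and Crmp1 the injured and uninjured arrays overlapped. Cdk5r1, the activator of the kinase Cdk5, was at −0.71 ± 0.07 (3.78e-05), Limk1, a kinase that inactivates cofilin, at −0.35 ± 0.07 (0.00335) and Rasa1 at −0.32 ± 0.06 (0.00429). The LIM kinases differed in direction, with Limk2 at 0.33 ± 0.06 (0.00159).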

How the data were processed

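The intensities deposited for each two-colour Agilent array (mean spot, median local background) are scanner output without normalization. Agilent Feature Extraction 10.5.1.1 made the log10 ratios and the spot flags beside them, per the file headers. What the authors deposited as processed values are log2 ratios, DRG over reference, and the submitters' processing notes name limma. Cultured neurons, optic nerve and RNA sequencing were not analysed here.

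In R 4.3.3 with limma 3.58.1, non-uniform spots (2 to 26 per array) were left out, because with them 1 array had a slope of 0.813 on the authors' values, against 1.01 without them. Normexp (offset 50), loess within arrays and the mean of repeated spots followed. Genes were read from the probe brightest in Cy5, out of those above background on at least 4 of 9 arrays, and tested with limma (lmFit, eBayes) and Benjamini-Hochberg adjustment. The exact permutation test was two-sided, over 126 splits. Steps were tested on simulated data. Each array's value is given for called genes, neuropilins and class 3 semaphorins, and at most 4 called pathway genes per direction are named by size among those reported, with Limk2, Crmp1 and Farp1 added after their values were seen. The called pathway gene that ranked first by size among the intracellular genes is not reported here. Members and lists were chosen with earlier results of these data known. Alternatives changed the background, normalization, filter, probe choice, slide model, weights, threshold and arrays, and leaving out the arrays with raised muscle genes was chosen after the marker lists were seen.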

Additional observations from a re-analysis of the deposited data

Results flagged for a closer look

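In 4 of the 58 groups of arrays checked, over the 29 genes tested in each condition, 1 array lay apart from the rest by Dixon's criterion at the 95% level, which chance alone meets in about 1 group in 20. In Nrp2, injured 5 was highest at −1.65, against −1.99 on the next injured array. In Sema6d, injured 5 was lowest at 3.62, against 4.12. In Sema3e, injured 3 was highest at −0.842, against −1.08. In Sema5b, uninjured 3 was lowest at 0.0436, against 0.299. Injured 5 was thus apart in 2 of the 4, and the cause was not tested.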

How the results depend on the processing

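Of the 7 called genes none changed direction under the 23 alternative settings, and Sema6a passed the test in all 23 (log2 fold change 2.18 to 3.19). Over the same settings Plxna4 ran from 0.385 to 1.13, Plxna2 from −0.611 to −0.421, Sema4f from 0.317 to 0.599, Sema7a from −0.728 to −0.325, Plxnc1 from −0.594 to −0.284 and Sema6c from 0.0624 to 0.33. Plxna2 and Plxna4 lost their calls only with slide as a fixed block and on the slide of both groups alone. Sema4f lost its call in these 2 settings and with median centring (adjusted p = 0.0606), and Sema7a in these 2 and without the arrays with raised muscle genes. With slide as a random block all of these genes kept their calls. The number of the 29 genes called higher, 4 as reported, was 2 with median centring, 7 with the Cy5 channel alone, 1 with slide as a fixed block or with the slide of both groups only, and 7 with slide as a random block. The number called lower, 3 as reported, was 0 with the fixed block or that slide only, 6 with the random block, 5 with array weights and 1 without the arrays with raised muscle genes. Of all genes, 5355 were called as reported, 2685 with median centring (which moved the median of all genes to −0.0497), 1188 with the fixed block, 139 with that slide only, 2995 at an adjusted p under 0.01 and 3031 without the arrays with raised muscle genes, whereas 7479 (35.5%) were called with the random block (correlation −0.207), 6445 (30.5%) with array weights and 5018 (23.8%) with Cy5 alone. Leaving out 1 array at a time gave 3 to 5 higher, 2 to 4 lower and 4065 to 5484 of all genes.

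Signs changed only in genes that were not called, 8 in all. With all spots kept Sema6b was 0.0183. With median centring Plxna1 was −0.0475 and Sema5a −0.0221. With Cy5 alone Sema5b was 0.108. With the fixed block and on the slide of both groups alone Plxnb1 was −0.0682, Sema3d 0.0918, Sema4g −0.0589, Sema5a −0.276 and Sema6b 0.031. Without the arrays with raised muscle genes Sema5a was −0.0511 and Sema6b 0.0344. Leaving out 1 array gave −0.0355 to 0.147 in Sema5a, −0.126 to 0.0387 in Sema5b, −0.109 to 0.0379 in Sema6b and −0.137 to 0.0389 in Sema6d.

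Median centring changed the share of higher calls among all called genes from 44.9% to 36.7%, and the slide of both groups alone gave 89.2%. The cause of these changes was not tested, and the fit on that slide alone used fewer arrays. No paired analysis was possible because no label ties a sample to an animal, and the numbers in L3/L4 name spinal levels. The 4 and 5 arrays, on slides that mostly hold 1 group, limit every comparison, and a dye effect common to both groups cannot be separated from the ratios.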
